A study of Mus musculus with 4 samples.

Results

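T cells of the mouse ovary were taken as the barcodes that carried transcripts of the T cell receptor complex, and there were 554 of them among 47782 barcodes past the quality filter, or 1.16%. The quality filter kept barcodes with at least 500 genes, over 1000 UMIs (unique molecular identifiers, each a captured RNA molecule) and under 10% mitochondrial UMIs. A barcode counted as a T cell if at least 2 of *Cd3e*, *Cd3g*, *Cd3d*, *Trac*, *Trbc2* and *Cd5* were detected, with at least 1 of the *Cd3* genes among them. Its *C1qa*, *C1qb* and *C1qc* UMIs, which mark macrophages, had to sum to under 3, it could hold no UMI of the B cell genes *Cd79a* and *Ms4a1*, and the granulosa cell genes *Inhba* and *Amh* had to stay under 10 per 10,000 of its UMIs. The members were therefore chosen by measured values, and their levels of these genes are a description of the choice. All levels below are UMIs of a gene per 10,000 UMIs of all genes, summed over the T cells of a library unless other cells are named.

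T cells recognize antigen through a receptor of paired alpha and beta chains, or of paired gamma and delta chains, which signals through the CD3 proteins. Alpha-beta T cells carry CD4, a coreceptor of helper and regulatory cells, or CD8, the coreceptor of cytotoxic cells, whereas gamma-delta T cells usually carry neither and settle in tissues early in life. A branch of the gamma-delta cells makes interleukin-17. T cells are known to be present in the ovarian stroma and around follicles and corpora lutea.

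The libraries came from whole ovaries of 8-week-old female mice of the same litter, with 2 libraries from Fosl2F/F mice (*Fosl2* flox/flox) and 2 from Fosl2cKO mice (*Cyp19a1*-Cre; *Fosl2* flox/flox), so that floxed *Fosl2* alleles were shared by both groups. The Cre is driven by the *Cyp19a1* promoter, which is active in granulosa cells, and the deletion is not directed at T cells. *Fosl2* encodes an AP-1 transcription factor. The cells were dissociated and captured by droplet 3′ sequencing, with no sort for immune cells, with n = 2 per group. Whether a library held the ovaries of a single mouse or of several is not given in the sources used here, so p-values measure the spread between these 4 libraries, which may be partly technical.

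The labels were first compared with the targeted gene. In barcodes with at least 10 *Inhba* and *Amh* UMIs per 10,000, which are granulosa cells by these genes, *Fosl2* was at 1.76 and 1.80 in the Fosl2F/F libraries, while the libraries labelled Fosl2cKO held 1.97 and 1.06. Only the Fosl2cKO 2 library was lower than both Fosl2F/F libraries, and the library labelled Fosl2cKO 1 was not. These are RNA counts, whereas the study reports loss of Fosl2 protein by immunoblot in granulosa cells of Fosl2cKO mice. Directions between the groups below are between the libraries as labelled. The 4 libraries held 123493207, 148836173, 124979060 and 120327227 UMIs, and values in 4 libraries are given throughout in the order Fosl2F/F 1, Fosl2F/F 2, Fosl2cKO 1 and Fosl2cKO 2. The Fosl2F/F 2 library stood apart, with 24320 barcodes past the filter against 7175 to 8780 in the others and a median of 3970 UMIs per barcode against 11380 to 12885. T cells were shallower than the median barcode of every library, with medians of 3170, 1734, 3368 and 3779 UMIs. No barcode was a T cell in more than 1 library, while 1 and 2 of the T cell barcodes of Fosl2cKO 1 also occurred among the other quality-filtered barcodes of Fosl2F/F 1 and Fosl2F/F 2.

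The libraries gave 109, 135, 217 and 93 T cells, out of 581 candidates with the required receptor genes. Of the candidates, 6 were removed by the macrophage genes, 6 by the B cell genes and 17 by *Inhba* and *Amh*, where a barcode that failed more than 1 of these conditions is counted under each. The smallest passing number of receptor genes, 2, was held by 72 members, while 112 held 3, 152 held 4, 163 held 5 and 55 held all 6. Just outside the rule stood 157 barcodes that had a single *Cd3* gene and no other of the 6 genes. These had a median of 0 of 13 further T cell genes that the rule did not use, in every library. The members with 2 receptor genes had a median of 5.5, 4, 5 and 7 of the 13, and all members together 7, 4, 7 and 7. Among the 554 T cells, 3 had none of the 13, and 475 (85.7%) had a UMI of *Ptprc*, the CD45 gene of leukocytes.

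The receptor genes lay together in the genome in part. *Cd3g* (ENSMUSG00000002033) occupies chr9:44969572-44980431 on the minus strand of GRCm38, and *Cd3d* (ENSMUSG00000032094) starts 1355 bases away on the plus strand, at chr9:44981786-44987339. *Cd3e* (ENSMUSG00000032093) follows at chr9:44998740-45009627 on the minus strand. *Trac*, the constant part of the alpha chain, is at chr14:54220521-54224206, and *Trdc*, that of the delta chain, lies 71653 bases upstream at chr14:54142851-54148868, both on the plus strand.

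*Cd3e*, a signalling chain of the receptor complex, was at 4.88, 2.98, 4.40 and 4.20 in T cells, with UMIs in 81.4% of them. *Cd3g*, a second such chain, was at 9.18, 3.36, 6.77 and 7.05, and *Trac* at 3.11, 1.26, 2.65 and 2.64. In each case the Fosl2F/F 2 library was the lowest and the other 3 libraries were higher. Of all *Cd3e* UMIs in quality-filtered barcodes, 81.3%, 76.8%, 94.4% and 95.7% lay in the T cells. The rule thus missed more of them in the Fosl2F/F libraries than in the others. Over the libraries together the T cells held 90.2% of the *Cd3g* UMIs, 65.3% of the *Trac* UMIs and 10.7% of the UMIs of *Thy1*, a surface gene that other ovarian cells also express.

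The 13 T cell genes outside the rule were also high in these cells. Their summed level was 42.1, 22.2, 41.7 and 47.6 in T cells and 0.224 to 0.271 in all other barcodes. *Skap1*, an adaptor that links the receptor to integrins, was at 11.4, 5.16, 9.26 and 12.2 and was detected in 90.8% of T cells. Genes that had no part in the choice were thus those of T cells, and the label was kept. Genes were also ordered by their smallest difference from all other barcodes over the 4 libraries, in the 475 T cells whose T cell genes outnumbered those of other cells, a set described further on. The leading genes included *Ccl5*, a chemokine of effector lymphocytes, *Arhgap15*, a regulator of Rac, and *Skap1*. Further leading genes were *Dock2* and *Dock10*, which act on small GTPases in leukocytes, *Ptprc*, *AW112010*, *Srgn*, the core protein of secretory granules, and *Vps37b*. *Cd3g* came in place 11. *Skap1* and *Cd3g* were among the genes that chose those 475 cells, and the order is a description with no test.

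The T cells were next set beside their closest neighbours. NK-like barcodes, with at least 2 of 5 NK receptor genes (*Ncr1*, *Klrb1c*, *Klra8*, *Klra4* and *Klre1*) and no *Cd3* UMI, numbered 359, B-like barcodes 131 and macrophage-like barcodes 1234. The 13 T cell genes were at 21.7, 11.3, 20.6 and 18.8 in NK-like barcodes, lower than in the T cells of the same library in every case. *Themis*, needed for T cell development in the thymus, and *Il17a* were near 0 outside T cells, whereas *Ccl5* was at 43.4, 23.3, 70.7 and 31.5 in NK-like barcodes and at 13.2, 10.8, 21.0 and 13.1 in T cells. *Nkg7*, a protein of cytotoxic granules, was at 4.74, 2.25, 4.68 and 3.99 in T cells. Of the leading genes above, *AW112010* was at 40.2, 14.4, 28.1 and 22.5 in NK-like barcodes and at 14.6, 14.1, 14.2 and 10.4 in the 475 T cells. *Ptprc* was at 11.7, 9.06, 18.9 and 15.8 in NK-like barcodes and at 9.64, 10.8, 14.9 and 12.8 in the 475 T cells. The list of 7 NK genes summed to 5.66, 2.91, 2.97 and 5.11 in T cells, and 44 T cells had at least 2 of the 5 NK receptor genes.

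**Figure D1:**
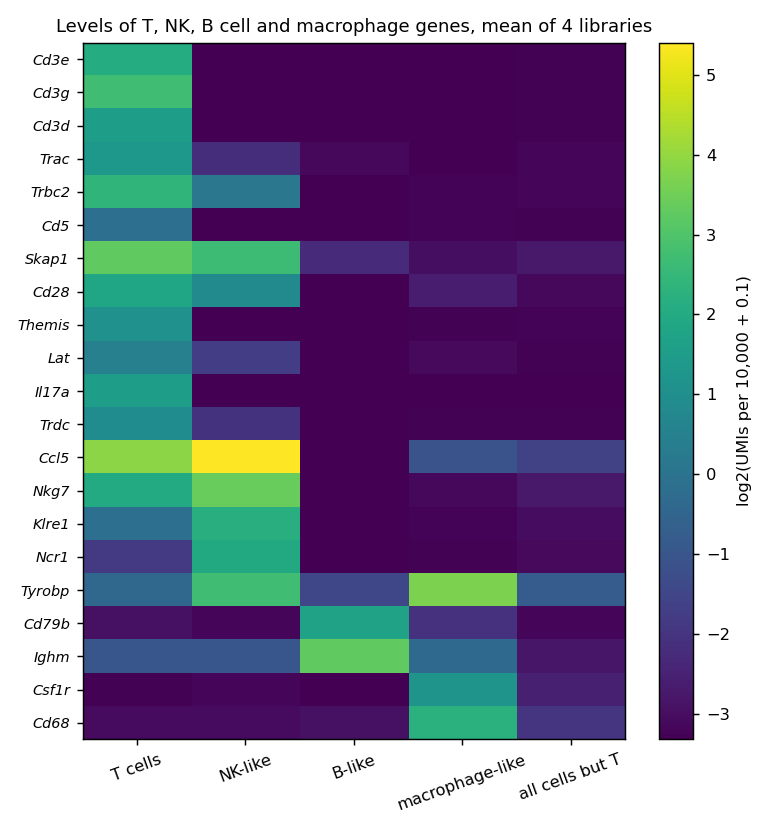
Mean level over the 4 libraries of 21 genes (rows) in T cells, NK-like, B-like and macrophage-like barcodes and all barcodes but T cells (columns). The color is log2 of UMIs per 10,000 plus 0.1. The 6 uppermost genes were used to choose the T cells. *Themis*, *Lat*, *Il17a* and *Trdc* were not and were higher in T cells than in every other column, while *Ccl5* and *Nkg7* were highest in NK-like barcodes.

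RNA of other ovarian cells was found in most T cell barcodes, and its level was highest in the deep ones. A UMI of 10 granulosa cell genes was detected in 96.3%, 63.7%, 74.7% and 73.1% of the T cells. The 152 T cells of up to 2500 UMIs held 104 UMIs of the 19 T cell genes per 10,000 and 15.2 of 24 genes of granulosa, stromal, steroidogenic and endothelial cells. The 216 T cells above 2500 and up to 4000 UMIs held 105 and 12.5, and the 93 above 4000 and up to 6000 UMIs 90.6 and 12. Over the libraries together the balance changed above this depth, with 57.2 and 39.5 in the 39 T cells above 6000 and up to 10000 UMIs and 15.5 and 74.3 in the 54 above 10000 UMIs. In the Fosl2F/F 2 library it changed earlier, with 37.7 and 41.8 in its 25 T cells above 2500 and up to 6000 UMIs, where the other libraries held 95.7 to 112 and 8.04 to 14.9. The 54 above 10000 UMIs were 9.75% of the T cells but held 40.6% of all T cell UMIs, so that sums over T cells were weighted towards them.

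In 475 T cells (85.7%) the T cell genes outnumbered the 24 genes of other cells, and these held 56.7% of the UMIs. They numbered 102, 93, 194 and 86 and held 72.1%, 32.9%, 54.8% and 70.8% of their library's T cell UMIs. The other 79 barcodes came to 7, 42, 23 and 7, most of them from the Fosl2F/F 2 library. Of the 79, 18 had at most 6000 UMIs, 17 of them in that library. Scrublet scores barcodes by their likeness to simulated doublets, and a rate set by library size fixed how many were to be removed. It placed 73 T cells (13.2%) among them, at 6, 44, 15 and 8 per library, and 50 of these were among the 79. They made up 5.50%, 32.6%, 6.91% and 8.60% of the T cells, where 7.03%, 19.5%, 5.74% and 6.01% of all quality-filtered barcodes were so placed. Doublets were not removed for the values below. The shares, the gene levels in T cells between the groups, and *Cd8*-positive against *Cd4*-positive T cells were compared again without them. The test that set T cells against all other barcodes was not repeated in this way. Every comparison between the groups was repeated with the 475 T cells alone, a set added after the data had been seen.

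**Figure D2:**
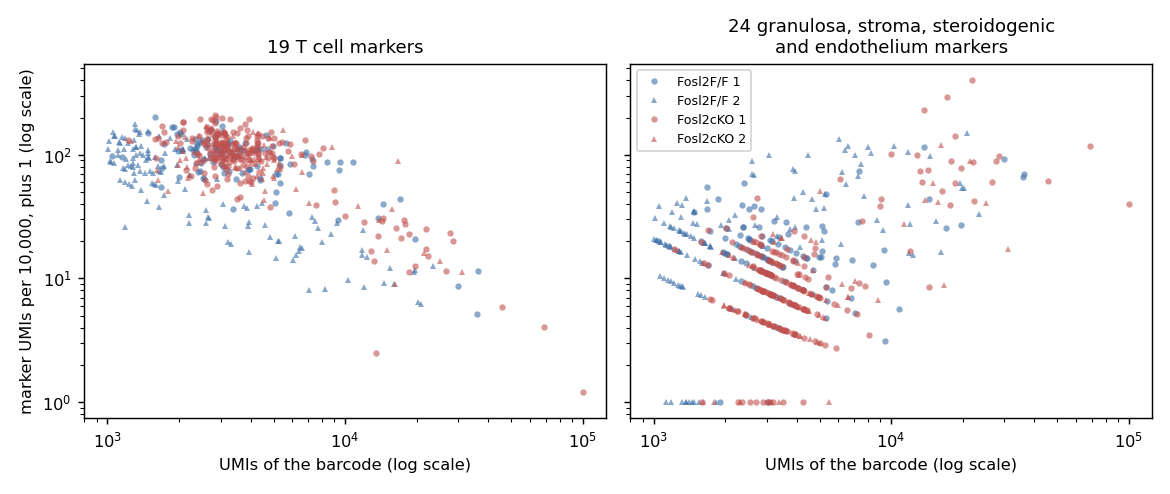
UMIs of the 19 T cell genes (left) and of 24 genes of granulosa, stromal, steroidogenic and endothelial cells (right) per 10,000, plus 1, against the UMIs of each of the 554 T cell barcodes. All axes are on a log scale, and each point is 1 barcode, colored by group with a circle for replicate 1 and a triangle for replicate 2. Summed over all libraries, T cell genes lay near 100 up to 6000 UMIs and fell beyond, where the other genes rose, while in the Fosl2F/F 2 library they were at 37.7 from 2500 to 6000 UMIs.

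Within the T cells, subsets were read from the coreceptor and receptor genes. *Cd8a* or *Cd8b1* without *Cd4* was detected in 112 T cells (20.2%; 15, 18, 56 and 23 in the libraries), *Cd4* without either *Cd8* gene in 40 (7.22%; 7, 4, 19 and 10) and *Trdc* in 95 (17.1%; 21, 19, 32 and 23). These gates hardly overlapped, since 2 cells had both *Cd4* and a *Cd8* gene and 4 had *Trdc* with *Cd4* or *Cd8*. None of the genes was seen in 309 T cells (55.8%), which at a median of 1734 to 3779 UMIs means that they were not detected, not that they were absent. In all other barcodes, which were deeper, *Cd4* was detected in 0.315%, *Cd8a* in 0.0423%, *Cd8b1* in 0.104% and *Trdc* in 0.210%, so that the shares in T cells stood far above those elsewhere. *Cd4* was also seen in 4.46% of macrophage-like barcodes.

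*Foxp3*, the transcription factor of regulatory T cells, was detected in 8 T cells, at 1, 0, 4 and 3 per library, against 0.0614% of other barcodes. The 0 of 135 cells in the Fosl2F/F 2 library allows a share of up to 2.22% by counting error alone, and limits cells with a UMI, not cells that express the gene. *Il17a* was detected in 57 T cells (10.3%; 7, 8, 27 and 15), again against 0.0614% of other barcodes. *Mki67* or *Top2a*, which mark dividing cells, were detected in 108 T cells (19.5%), but *Mki67* was seen in 7.76% of T cells and 17.4% of other barcodes, and *Top2a* in 17% and 22.6%. Both shares were below those of the other barcodes, but these were deeper, and detection follows depth. The comparison therefore cannot decide on T cell division, and none was read from it.

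The 95 *Trdc*-positive T cells carried a second set of genes with them, in all 4 libraries. *Il17a* (ENSMUSG00000025929, chr1:20730905-20734496, plus strand) was at 6.82, 9.80, 22.8 and 17.5 in *Trdc*-positive T cells and at 0.964, 0.0410, 0.304 and 1.36 in the other T cells. The lowest *Trdc*-positive value was 6.82 and the highest *Trdc*-negative value 1.36. *Il17a* was detected in 38.9% of *Trdc*-positive and 4.36% of *Trdc*-negative T cells, and 64.9% of the *Il17a*-positive T cells were *Trdc*-positive. These values, and those of the next paragraph, describe a gate set on a gene measured in the same cells and carry no test.

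*Cd163l1*, a scavenger receptor of interleukin-17-producing gamma-delta cells, was at 5.88 in *Trdc*-positive and 0.0458 in *Trdc*-negative T cells over the libraries together. *Tcrg-C1*, a constant segment of the gamma chain, was at 3.66 and 0.237, and *Trdv4*, a variable segment of the delta chain, at 1.44 and 0.0125. *Il23r*, the receptor for the cytokine that sustains interleukin-17 production, was at 5.06 and 1.24, *Zbtb16*, a factor of innate-like T cells, at 6.36 and 1.92, and *Blk*, a kinase of B cells and gamma-delta cells, at 2.46 and 0.246. *Clnk*, an adaptor of immunoreceptor signalling, was at 5.93 and 0.512, and *Il1r1*, the interleukin-1 receptor, at 5.48 and 1.32. The alpha-beta side moved the other way, with *Trac* at 0.591 and 2.81, *Cd28*, the costimulatory receptor, at 1.44 and 3.64, and *Cd5* at 0.213 and 1.0. *Trac* and *Cd5* belonged to the rule for T cells. *Ccl5*, at 16.1 and 16.3, was close in both.

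Not every library showed each difference to the same degree. *Cd28* was lower in *Trdc*-positive T cells of 3 libraries and higher in those of the Fosl2F/F 2 library, as the plot of *Trdc*-positive and *Trdc*-negative cells shows. *Cxcr6*, a chemokine receptor of tissue-resident lymphocytes, was detected in 63.2% of *Trdc*-positive and 35.7% of *Cd8*-positive T cells.

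**Figure D3:**
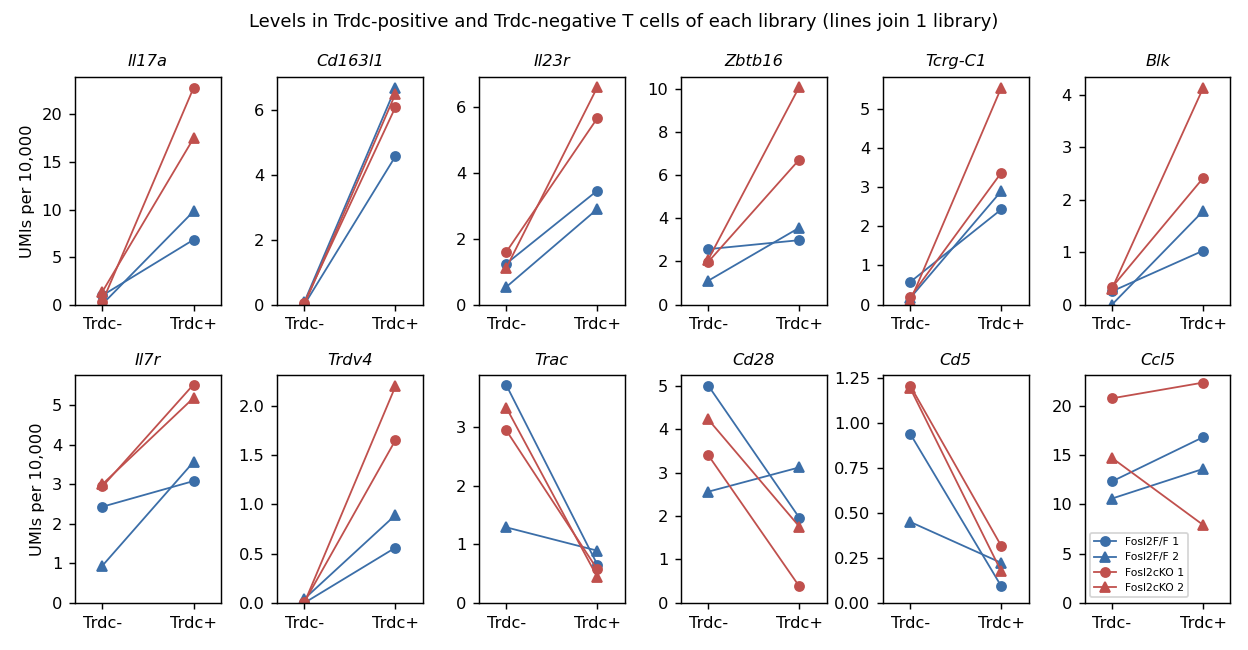
Levels of 12 genes (UMIs per 10,000) in *Trdc*-negative and *Trdc*-positive T cells. A line joins the values of 1 library, in blue for Fosl2F/F and red for Fosl2cKO, with a circle for replicate 1 and a triangle for replicate 2. *Il17a*, *Cd163l1*, *Il23r*, *Tcrg-C1*, *Blk* and *Trdv4* rose along the line in all 4 libraries, and *Trac* and *Cd5* fell.

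The 112 *Cd8*-positive and 40 *Cd4*-positive T cells were compared within the libraries, with the library as a block, leaving out the gate genes *Cd4*, *Cd8a* and *Cd8b1*. By the quasi-likelihood test of edgeR with Benjamini-Hochberg adjustment, 1 of 1782 genes (0.0561%) passed (an adjusted p below 0.1 with a difference of more than 0.25 on the log2 scale), and 55 had an unadjusted p under 0.05. The gene was *Ccl4* (ENSMUSG00000018930, chr11:83662584-83664683, plus strand), a chemokine that activated CD8 cells release. It was at 0, 0, 0.220 and 0 in *Cd4*-positive and 4.72, 1.17, 10.3 and 3.27 in *Cd8*-positive T cells, with no overlap. This was 3 UMIs in the *Cd4*-positive cells, all in the Fosl2cKO 1 library, against 30, 13, 331 and 43 UMIs in the *Cd8*-positive cells (adjusted p = 0.00846). *Ccl4* was detected in 42.9% of *Cd8*-positive and 5.0% of *Cd4*-positive T cells. Without the Fosl2cKO 1 library *Ccl4* did not pass the filter on low counts, and 0 of 908 genes passed, with 54 at an unadjusted p under 0.05.

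Of 20 cytotoxic genes 5 were tested, 1 passed (*Ccl4*), and 4 had a higher level in the *Cd8*-positive cells. Their median log2 difference was 1.82, against 0.06 over all genes tested. *Nkg7* was at 0, 0, 3.08 and 2.15 in *Cd4*-positive and 7.24, 3.24, 8.16 and 5.48 in *Cd8*-positive T cells, a log2 difference of 2.09 (adjusted p = 1.0). *Gzmk*, a granzyme of memory CD8 cells, was detected in 27.7% of *Cd8*-positive and 5.0% of *Cd4*-positive T cells. *Eomes*, a transcription factor of the same cells, was detected in 17% of *Cd8*-positive cells. These shares are over the libraries together, and 56 of the 112 *Cd8*-positive T cells came from the Fosl2cKO 1 library. Of all *Gzmk* UMIs 5.88%, 17.5%, 74.1% and 12.1% lay in the T cells, and of *Eomes* UMIs 20.9%, 5.66%, 32.1% and 5.48%. *Ifng*, the interferon gamma gene, ran against the list, at 5.38, 0, 5.65 and 4.02 in *Cd4*-positive and 2.05, 0.450, 1.3 and 0.608 in *Cd8*-positive T cells (adjusted p = 1.0).

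*Ctla4*, an inhibitory receptor of regulatory and activated T cells, was at 6.53, 1.06, 7.05 and 6.71 in *Cd4*-positive and at 0.945, 0.180, 1.74 and 0.456 in *Cd8*-positive T cells. It was lower in the *Cd8*-positive cells of every library, by 2.68 on the log2 scale with a standard error (SE) of 0.43, and missed the threshold (adjusted p = 0.115), which it passed in the 475 T cells alone and by DESeq2. *Cd40lg*, the ligand by which helper cells activate B cells, was detected in 30% of *Cd4*-positive and 5.36% of *Cd8*-positive T cells.

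The groups overlapped in the share of T cells in the ovary. It was 1.24% and 0.555% in the Fosl2F/F libraries, against 3.02% and 1.24% where the label was Fosl2cKO. The means were 0.898% ± 0.485 and 2.13% ± 1.26 (SD, n = 2 each), a difference of 1.23 percentage points with an exact two-sided permutation p of 0.667, where 2 libraries against 2 cannot go below 0.333. Fosl2F/F 1 and Fosl2cKO 2 held nearly the same share, and the Fosl2cKO 1 library alone lay above them. Of barcodes with a *Ptprc* UMI, T cells were 18.8%, 6.24%, 23.4% and 13%, again with overlapping groups (exact p = 0.667). Without the Fosl2cKO 1 library the difference was 0.341 percentage points. The groups were apart, with the smallest possible exact p of 0.333, in barcodes over 2000 UMIs (1.17%, 0.314%, 3.03% and 1.2%). At the same exact p they were apart for T cells of at most 6000 UMIs as a share of all quality-filtered barcodes (1.048%, 0.440%, 2.55% and 1.052%). There Fosl2F/F 1, with 92 of 8780, and Fosl2cKO 2, with 79 of 7507, held nearly the same share.

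**Figure D4:**
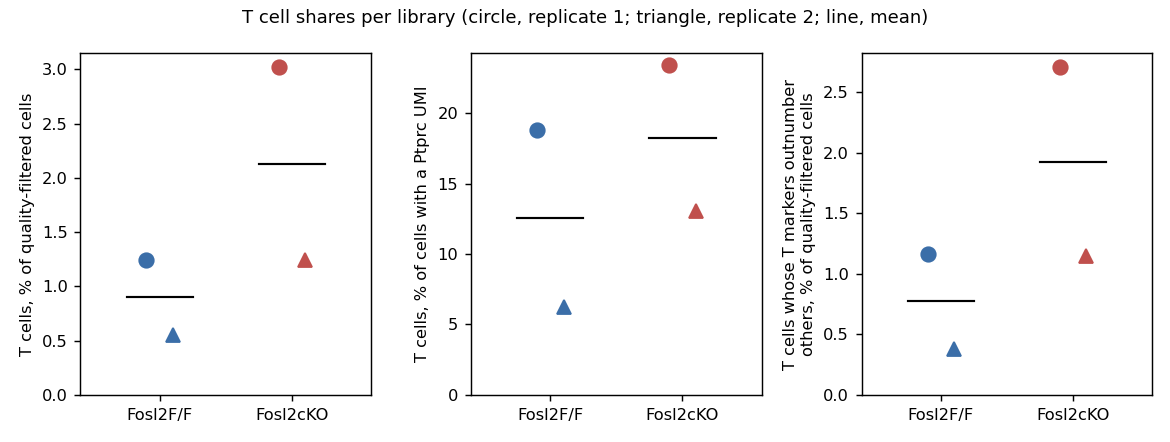
Share of T cells in each library (points; circle, replicate 1; triangle, replicate 2) and the group mean (line, n = 2 libraries), as a percentage of quality-filtered barcodes (left) and of barcodes with a *Ptprc* UMI (middle), and for the T cells whose T cell genes outnumbered those of other cells (right). All axes start at 0. In every panel the lower Fosl2cKO library fell below the higher Fosl2F/F library.

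For the subsets every T cell was thinned to 1000 UMIs, since detection follows depth. The *Cd8*-positive share of T cells was then 6.85%, 7.03%, 12.5% and 11.3%, higher in both libraries labelled Fosl2cKO than in either Fosl2F/F library, by 4.96 percentage points between the means. Without thinning the shares were 13.8%, 13.3%, 25.8% and 24.7%, in the same order of groups. The exact p was 0.333, the smallest possible here, and 0.833 after adjustment over the 5 subsets tested. *Cd4*-positive T cells were at 2.95%, 1.96%, 3.09% and 4.23%, also without overlap (exact p = 0.333, adjusted p = 0.833), but with only 4 to 19 cells per library before thinning. They overlapped (exact p = 0.667) over 2000 UMIs (3.35%, 0.305%, 2.66% and 4.57%), with at least 3 receptor genes (3.18%, 2.84%, 3.01% and 4.31%) and at up to 6000 UMIs (3.38%, 2.47%, 3.34% and 4.64%).

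The remaining subsets overlapped between the groups after thinning. *Trdc*-positive T cells were at 13%, 11%, 10.0% and 17.2% (exact p = 1), where the 2 libraries labelled Fosl2cKO were the lowest and the highest. *Foxp3*-positive T cells were at 0.546%, 0%, 0.504% and 1.14% (exact p = 0.667). Without thinning they were at 0.917%, 0%, 1.84% and 3.23%, with the groups apart (exact p = 0.333), as they were over 2000 UMIs, under 5% mitochondrial UMIs and with at least 3 receptor genes, where both Fosl2F/F libraries held 0%. T cells with *Mki67* or *Top2a* were at 6.97%, 13.4%, 6.74% and 7.73% (exact p = 0.667), where the Fosl2F/F 2 library stood above the other 3.

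*Fosl2* itself (ENSMUSG00000029135, chr5:32135801-32157842, plus strand) was detected in 48.6% of the T cells. Its level was 1.90, 2.98, 2.68 and 2.62 in T cells and 1.72, 2.43, 2.37 and 1.76 in all other barcodes. The T cells of the libraries labelled Fosl2cKO lay between those of the 2 Fosl2F/F libraries, with a log2 difference of 0.12 (SE 0.29, edgeR adjusted p = 0.995).

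Gene levels in T cells were then compared between the groups, on the UMIs summed over all 554 T cells per library. Of 7926 genes 0 (0%) passed by edgeR, while 390 had an unadjusted p under 0.05, and DESeq2 called 9. The T cells whose T cell genes did not outnumber those of other cells held different shares of these sums in the 4 libraries. Without Scrublet's barcodes 0 of 6684 genes passed by edgeR. The same test on the 475 T cells whose T cell genes outnumbered the others is given further on.

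Several T cell genes stood higher in both libraries labelled Fosl2cKO without passing the test over all T cells. *Grap2*, an adaptor of the T cell receptor pathway, was at 4.09, 2.61, 7.82 and 7.60 (log2 difference 1.18, SE 0.33, adjusted p = 0.819). *Pdcd1*, the PD-1 inhibitory receptor, was at 0.313, 0.244, 0.714 and 0.971 (1.56, adjusted p = 0.782). *Il17a* was at 2.12, 0.863, 3.08 and 5.24 (1.44, SE 0.48, adjusted p = 0.901). Its sums rested on 7, 8, 27 and 15 T cells with a UMI, and in Fosl2F/F 1 single cells held 27, 26, 40 and 15 of its 115 UMIs. For all 3 genes the groups did not overlap, as for 18.9% of the 7926 genes tested, which were higher in both libraries labelled Fosl2cKO than in either other one, and 16.4% were lower in both. *Nr3c1*, the glucocorticoid receptor, was at 4.16, 2.91, 5.92 and 5.95, and *Stmn1*, a tubulin regulator of dividing cells, ran the other way at 3.72, 4.26, 1.82 and 2.24 (log2 difference -0.99, adjusted p = 0.819).

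By list, no member passed in either direction, and the median log2 difference of all genes tested was -0.02. Of the 26 genes of the receptor and its proximal signalling, which include the 6 of the rule, 24 had positive differences, with a median of 0.40. The lists of CD8 lineage genes (median 0.62, 3 of 3 positive), gamma-delta and type 17 genes (0.56, 9 of 10), regulatory T cell genes (0.54, 8 of 9), chemokine receptors (0.71, 4 of 5), type 2 genes (0.73, 2 of 2), CD4 helper genes (0.26, 1 of 2) and inhibitory receptors (0.63, 5 of 6) lay on the same side. Cycling genes (median -0.95, 0 of 12 positive), interferon response genes (-0.38, 3 of 9) and heat shock genes (-0.27, 0 of 10) lay on the other. Cytotoxic effector genes (0.05, 8 of 15) and hormone receptors (-0.01, 3 of 7) were close to the median of all genes, whereas tissue residency genes (0.17, 4 of 7), naive and recirculating genes (0.31, 7 of 10), AP-1 and immediate early genes (0.31, 13 of 18) and MHC class I genes (0.18, 7 of 10) lay a little above it. Members of a list were measured in the same libraries, and no list was tested as a set.

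These medians stood beside a difference in RNA of other cells. Over all T cells the 10 granulosa cell genes summed to 8.90 to 14.9 in the Fosl2F/F libraries and 4.31 to 8.29 in those labelled Fosl2cKO, and the 5 endothelial genes to 1.92 to 1.99 and 0.816 to 1.2, both without overlap. The 5 stromal genes (7.77 to 11.9 and 4.08 to 22.5) and the 4 steroidogenic genes (8.13 to 24.4 and 12 to 16.7) overlapped. The part of these genes in the list medians was not tested.

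In the 475 T cells whose T cell genes outnumbered the others, 68 of 5961 genes (1.14%) passed by edgeR, and 730 had an unadjusted p under 0.05. Under the Fosl2cKO label 24 were higher (0.403%) and 44 lower (0.738%). Of all 5961 genes, called or not, 23.3% were higher in both libraries labelled Fosl2cKO than in either other one and 19.8% lower in both. This set was chosen after the data had been seen, and its choice used 19 T cell and 24 other genes. Without any one library 103 to 120 genes passed, of which 37 to 51 were among the 68. Among T cells of at most 6000 UMIs 20 genes passed, 13 of them among the 68, so that the calls rested in part on which barcodes and libraries entered.

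In the Fosl2F/F libraries, 15 of the 24 higher genes had a higher mean level in these T cells than in all other barcodes, against 50.5% of all genes tested. *March3*, a membrane-bound ubiquitin ligase, was at 1.15, 1.71, 5.82 and 4.35 in the 475 T cells (log2 difference 1.85, SE 0.27, adjusted p = 0.0123) and at 0.338, 0.685, 0.812 and 0.435 in other barcodes. *Dgat1*, the enzyme of the last step of triglyceride synthesis, was at 1.02, 1.94, 3.88 and 4.0 (1.46, SE 0.29, adjusted p = 0.0434), with 0.134 to 0.232 in other barcodes. In both cases the T cells of the groups were apart while the other barcodes overlapped.

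*Btg1*, an antiproliferative gene that keeps lymphocytes quiescent, was at 5.73, 5.01, 12.4 and 16.1 (log2 difference 1.35, adjusted p = 0.0276), with 1.35, 1.54, 2.57 and 2.49 in other barcodes. *Grap2* was at 5.21, 5.35, 12.4 and 9.93 (1.04, adjusted p = 0.0644), the only called member of the receptor list. *Pdcd1* was at 0.409, 0.456, 1.19 and 1.25 (1.46, adjusted p = 0.0920), the only called member of the inhibitory receptors. *Socs1*, a brake on cytokine signalling, was at 0.128, 0.285, 0.888 and 1.01 (2.31, adjusted p = 0.0400), with 0.0568, 0.119, 0.434 and 0.300 in other barcodes. *Smad7*, a brake on TGF-beta signalling, was at 0.639, 0.627, 1.69 and 3.46 (1.93, adjusted p = 0.0444), with 0.409, 0.428, 0.683 and 0.976 in other barcodes. For *Btg1*, *Socs1* and *Smad7* the other barcodes were thus also higher in both libraries labelled Fosl2cKO. *Nr4a3*, a nuclear receptor induced by receptor signals, was at 3.07, 3.02, 7.18 and 5.76 (1.04, adjusted p = 0.0662), and *Dusp5*, a phosphatase of ERK, at 1.28, 1.31, 2.52 and 3.67 (1.19, adjusted p = 0.0920).

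The largest rises by the rule for named genes also included *Rfxap*, a factor for MHC class II genes, *Edem3* and *Ern1* of the endoplasmic reticulum stress response, the immediate early gene *Ier5*, the glutamine transporter *Slc1a5*, *Scand1* and *Eif3f*. Of these, *Eif3f*, a subunit of a translation initiation factor, was at 1.10, 1.25, 3.71 and 4.56 in T cells and at 1.26, 1.41, 3.35 and 4.55 in all other barcodes. *Scand1* was at 0.128, 0.456, 1.32 and 1.16 in T cells and at 0.136, 0.326, 1.07 and 1.12 in other barcodes. For *Eif3f* and *Scand1* the groups were apart in the other barcodes as they were in T cells. Of the 24 genes, 5 differed at least 2-fold in the other barcodes, and how many of all genes tested did so was not counted. For *Ern1* (1.43, 2.72, 3.08 and 1.77) and *Edem3* (0.419, 0.742, 0.730 and 0.682) the other barcodes overlapped.

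In the Fosl2F/F libraries, where the 44 lower genes stood higher, 31 of them still had a lower mean level in these T cells than in all other barcodes, against 49.5% of all genes tested. The 10 largest falls by the rule were *Ebf1*, *Ptgfr*, *Gpc6*, *Rgs5*, *Tnc*, *P3h2*, *Tm4sf1*, *Ptn*, *Ctnna3* and *Sorbs2*. *Ebf1*, a transcription factor of B cells and of pericytes, was at 0.741, 2.05, 0.0287 and 0 (adjusted p = 0.00896) in T cells and at 0.353, 1.12, 0.717 and 0.820 in other barcodes. *Rgs5*, a pericyte gene, was at 0.690, 2.28, 0.0287 and 0.0596 (adjusted p = 0.0123) in T cells and at 0.274, 0.491, 0.253 and 0.470 in other barcodes. Both were nearly missing from the T cells of the libraries labelled Fosl2cKO, and in neither did the other barcodes separate the groups.

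*Acta2*, smooth muscle actin, at 1.66, 2.73, 0.373 and 0.626, and *Sparc*, a matrix protein, at 1.99, 4.61, 0.817 and 0.686, were lower too and again overlapped between the groups in other barcodes. *Cyp11a1*, the first enzyme of steroid synthesis, was at 2.35, 3.93, 1.19 and 0.656, but it is one of the genes that chose this set. Even within the 475 T cells the granulosa cell genes summed to 4.67 to 10.2 in the Fosl2F/F libraries and 3.43 to 4.28 in those labelled Fosl2cKO, and the steroidogenic genes to 4.06 to 6.95 and 2.03 to 2.51, without overlap. The stromal genes (0.946 to 3.25 and 1.36 to 1.64) and endothelial genes (1.18 to 1.82 and 1.06 to 1.43) overlapped. Whether RNA of other cells took part in the lower calls was not tested.

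The lower genes also included several known from lymphocytes or from most cells. *Gzmc*, a granzyme of activated cytotoxic lymphocytes, was at 0.562, 0.627, 0.115 and 0.179 in T cells (log2 difference -2.11, adjusted p = 0.0971), where its mean level over the 4 libraries was 123 times that of other barcodes. The heat shock genes *Hspa1b*, at 1.18, 0.456, 0.172 and 0.179 (-2.39, adjusted p = 0.0444), and *Hspa1a*, at 2.25, 2.62, 0.401 and 1.13 (-1.82, adjusted p = 0.0644), were the 2 called of 10 genes of that list, whose median was -0.34 against -0.01 over all genes tested. *Prdx1*, a peroxidase, was at 7.03, 7.92, 3.87 and 3.64 (-1.03, adjusted p = 0.0588), with 16.7, 15.7, 12 and 12.4 in other barcodes. The other barcodes were also lower in both libraries labelled Fosl2cKO for *Gzmc* (0.00237, 0.00685, 0.00149 and 0.00138), *Hspa1a* (1.21, 1.12, 0.549 and 1.10) and *Prdx1*. Of the 44 lower genes, 5 differed at least 2-fold in the other barcodes, where the number among all genes tested was again not counted. *Prlr*, the prolactin receptor, was the only called hormone receptor, at 0.562, 0.854, 0.158 and 0.119, far below the 4.60 to 6.96 of other barcodes. Over all 554 T cells its log2 difference was -0.0054 (adjusted p = 1.0), and the part of RNA of other cells in its call was not tested.

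Of the lists, 13 had no called gene in the 475 T cells. The receptor list, with *Grap2* called, had a median of 0.29 (20 of 26 positive), while the CD8 lineage was at 0.60 (3 of 3), the gamma-delta and type 17 list at 0.39 (9 of 10) and the cycling list at -0.86 (1 of 11), with no called gene. *Il17a* was at 2.94, 2.62, 4.71 and 7.13 (log2 difference 1.02, adjusted p = 0.129), without overlap between the groups. *Ctla4* was at 1.53, 1.77, 4.17 and 2.03 (0.91) and *Il7r*, the interleukin-7 receptor of memory cells, at 3.37, 2.73, 4.94 and 4.62 (0.58), in both cases higher in the libraries labelled Fosl2cKO but not called (adjusted p = 0.275 and 0.314).

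**Figure D5:**
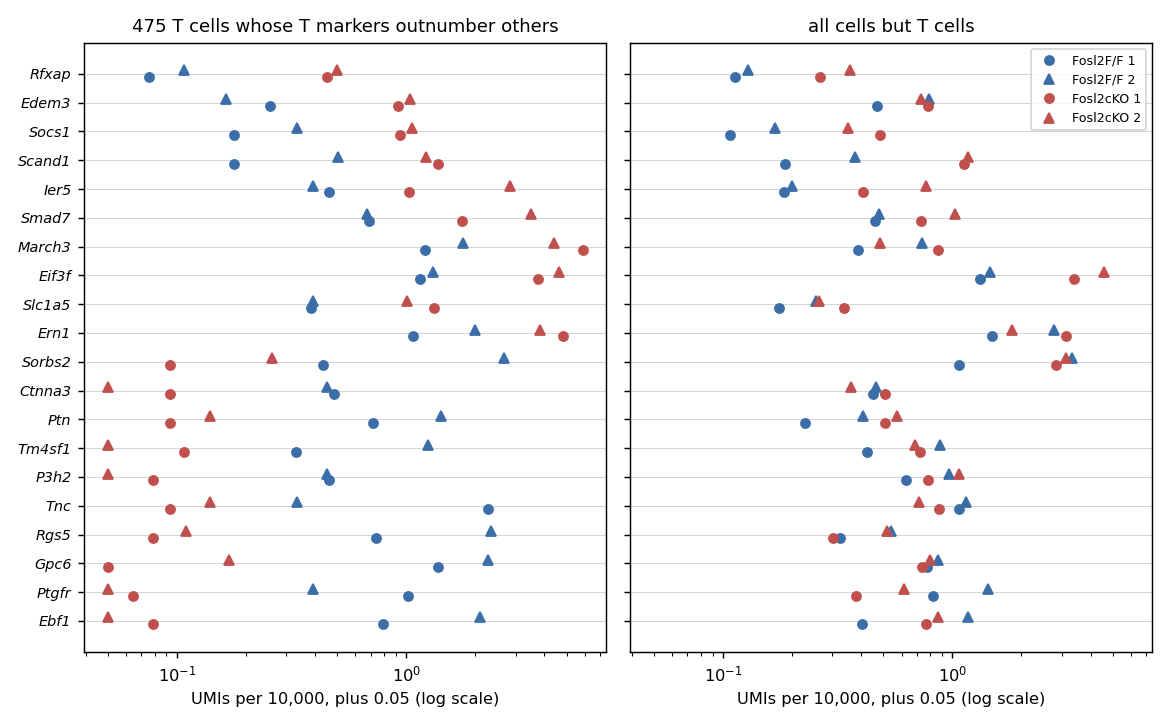
Levels (UMIs per 10,000, plus 0.05, log scale) of the 10 largest rises and 10 largest falls in the 475 T cells whose T cell genes outnumbered those of other cells (left), and the same genes in all barcodes but T cells (right). Each point is 1 library, blue for Fosl2F/F and red for Fosl2cKO, with a circle for replicate 1 and a triangle for replicate 2. The groups were apart on the left for every gene, while on the right *Rgs5*, *Ebf1*, *Gpc6*, *March3* and *Ern1* overlapped and *Eif3f*, *Scand1*, *Socs1* and *Rfxap* were among those still apart.

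Whether the difference between the groups was another one in T cells than in the rest of the ovary was tested as an interaction, on sums over all 554 T cells and over all other barcodes, with the library as a block. By edgeR 84 of 19335 genes (0.434%) passed, 32 with a higher and 52 with a lower difference in T cells. The rule genes *Cd3e*, *Cd3d* and *Trac* were among the 32 and are given as a description alone. Among the lower ones, *Ccl21a*, a chemokine of lymphatic endothelium, gave 271, 4, 7 and 0 UMIs in T cells, where its interaction was -5.10 on the log2 scale, and *Mmrn1*, another lymphatic gene, 40, 0, 8 and 0. In both genes most T cell UMIs came from the Fosl2F/F 1 library, and the other Fosl2F/F library was at 4 and 0 UMIs. In the 475 T cells the interaction of *Ccl21a* was -0.12 (adjusted p = 1), and 42 of the 84 genes passed there.

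Of the genes with a higher difference in T cells, *Il17a* averaged 1.49 and 4.16 in the T cells of the 2 groups and 9.27e-04 and 5.87e-04 in other barcodes (interaction 2.32, log2). *Pdcd1* averaged 0.279 and 0.843 in T cells and 0.0161 and 0.0114 in other barcodes (2.21), and was not called in the 475 T cells (2.14, adjusted p = 0.222). *Dgat1* averaged 0.837 and 2.80 in T cells and 0.183 and 0.188 in other barcodes (1.77), where the other barcodes overlapped between the groups. For *Trdc* the averages were 1.51 and 2.08 in T cells and 0.00552 and 9.71e-04 in other barcodes (2.95), where the larger ratio between the groups lay in the few UMIs outside T cells. Of all *Trdc* UMIs, 55.1%, 51.6%, 93.5% and 92.0% lay in the T cells, and of *Il17a* UMIs 93.5%, 73.0%, 97.8% and 98.0%. For both genes the other barcodes of the Fosl2F/F libraries held a larger part. The weight of this in the terms was not tested. The set of 84 genes changed with the libraries, with 24 to 236 genes when any one was left out.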

How the data were processed

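Single-cell RNA was measured in 4 ovary libraries, all of which were used (0 columns left out). They were grouped by the sample titles, which name 2 as control (Fosl2F/F in the study) and 2 as *Fosl2* cKO (Fosl2cKO). The deposited values are UMI counts per gene and barcode, whole numbers without normalization, for 32285 genes. The authors aligned 3′ reads to GRCm38 (mm10) with Cell Ranger. The file header names cellranger 7.1.0, the submitters' processing notes also name Seurat 4.1.0, and it is not stated whether the ambient RNA correction described in the methods is in these counts. The cell filters and doublet removal of the methods had not been applied. A barcode without enough reads can miss a gene it expresses, and intervals or limits cover counting error only.

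T cells, their members and the gene lists were chosen with earlier results of these data known. UMIs were summed per library over the cells named, genes kept by filterByExpr, libraries scaled by TMM, and groups compared by edgeR 4.0.16 (quasi-likelihood test; limma 3.58.1, R 4.3.3) with Benjamini-Hochberg adjustment over all genes tested. A gene was called at an adjusted p below 0.1 with a difference of more than 0.25 on the log2 scale. Shares of cells were compared by an exact two-sided permutation test over the 6 divisions of the libraries, and subset shares after thinning each T cell to 1000 UMIs. DESeq2 1.42.0 and Scrublet (scanpy 1.11.5, Python 3.11.15), removing 0.8% of a library's barcodes per 1000, were alternatives. The study used DoubletFinder, which was not used here. The edgeR step was tested on simulated data. Coordinates are from GENCODE M21 on GRCm38.

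Named genes were those of the rule, *Fosl2*, up to 4 members of each list by level in T cells, and for each comparison the 10 largest rises and 10 largest falls among called genes at 0.2 per 10,000 or more in the higher group. The leading genes of T cells and of *Trdc*-positive cells, and further called genes (*Dgat1*, *Btg1*, *Grap2*, *Nr4a3*, *Dusp5*, *Gzmc*, *Hspa1a*, *Hspa1b*, *Prdx1*, *Acta2*, *Sparc*, *Cyp11a1*), *Gzmk*, *Eomes* and *Ifng* were named after their values had been seen. A few genes that this rule or order would name are not reported here. The other alternatives were over 2000 UMIs, under 5% mitochondrial or 0.1% hemoglobin UMIs, 3 receptor genes, DESeq2 size factors, no gene filter, an adjusted p under 0.05 with no minimum fold, leaving out each library, and the replicate number as a block. The interaction was repeated only with DESeq2 size factors, no gene filter, the stricter adjusted p, the 475 T cells and each library left out. The set of 475 T cells, the T cells of at most 6000 UMIs and the crossed block were later additions, made with the data in view. The correlation of deviations of same-numbered libraries from their group means was -0.22, and nothing in the labels pairs them.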

Additional observations from a re-analysis of the deposited data

Results flagged for a closer look

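The difference between the groups was not the same in T cells as in all other barcodes for 84 of 19335 genes (0.434%). That difference itself was tested, by edgeR with the library as a block. The 84 include *Cd3e*, *Cd3d* and *Trac*, which chose the T cells, and the terms of these genes are a description alone. Of the 84, those with the largest negative terms were in part genes of few UMIs in T cells. *Gfra1* had 43 UMIs in the T cells of the Fosl2F/F libraries and 0 in those labelled Fosl2cKO, *Mecom* 27 and 0, *Flt4* 27 and 1, *Apold1* 25 and 2, and *Flt1* 28 and 2. A single library held most of these UMIs for all but *Apold1* (13, 12, 2 and 0 in the order Fosl2F/F 1, Fosl2F/F 2, Fosl2cKO 1 and Fosl2cKO 2), with 0, 43, 0 and 0 for *Gfra1*, 1, 26, 0 and 0 for *Mecom*, 2, 26, 0 and 2 for *Flt1*, and 25, 2, 1 and 0 for *Flt4*. On the log2 scale the term was -5.10 for *Ccl21a*, -4.34 for *Stab1*, -4.12 for *Rapgef5*, -3.86 for *Rgs5* and -3.84 for *Mmrn1*. In the 475 T cells whose T cell genes outnumbered those of other cells, *Ccl21a* was at -0.12 (edgeR adjusted p = 1), *Stab1* at -2.64 (adjusted p = 0.506), *Rapgef5* at -3.0 (adjusted p = 0.0105) and *Rgs5* at -4.75 (adjusted p = 1.02e-10), and *Mmrn1* changed sign. *Gfra1* (-0.40, adjusted p = 1), *Flt4* (-1.16, adjusted p = 1), *Flt1* (-1.79, adjusted p = 1) and *Apold1* (-4.10, adjusted p = 0.529) were not called there, whereas *Mecom* was (adjusted p = 7.67e-05).

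On the positive side the term was 1.77 for *Dgat1*, 2.14 for *Il23r*, 2.21 for *Pdcd1*, 2.32 for *Il17a*, 2.61 for *Lipg*, 2.63 for *Tnfsf11*, the RANK ligand, 2.68 for *Nmrk1*, 2.93 for *Cd40lg* and 2.95 for *Trdc*. In the 475 T cells *Lipg* turned to -2.58 (edgeR adjusted p = 1), and *Pdcd1* (2.14, adjusted p = 0.222), *Nmrk1* (2.35, adjusted p = 0.173) and *Cd40lg* (2.93, adjusted p = 0.115) were no longer called, while the other 5 were. *Tnfsf11* averaged 0.398 and 1.17 UMIs per 10,000 in T cells of the Fosl2F/F libraries and of those labelled Fosl2cKO, and 0.0116 and 0.00600 in other barcodes. *Cd40lg* averaged 0.758 and 0.788 in T cells, close to each other, and 0.00329 and 4.15e-04 in other barcodes. Of all *Cd40lg* UMIs 50%, 53.8%, 89.5% and 97.9% lay in the T cells, and of *Il23r* UMIs 84.3%, 39.4%, 95.0% and 87.1%. The rule for T cells thus left a larger part of both outside in the Fosl2F/F libraries. The weight of this in the positive terms was not tested. With 2 libraries a group, single libraries were not screened for outlying values.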

How the results depend on the processing

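The difference in the T cell share stayed positive without any one library (0.341 to 2.13 percentage points), as did those of the *Cd8*-positive (4.38 to 5.54), *Cd4*-positive (0.636 to 1.77) and *Foxp3*-positive shares (0.231 to 0.867). The *Trdc*-positive share ran from -1.99 to 5.22 and fell by 1.99 without Fosl2cKO 2, and the *Mki67* or *Top2a* share ran from -6.12 to 0.263, positive without Fosl2F/F 2. With a library left out, 1 group keeps a single library, which is assumed to vary like the other group. Genes called between the groups in T cells then numbered 15 to 202, against 0 with all libraries, 113 without a gene filter, 9 by DESeq2, 20 in T cells of at most 6000 UMIs and 68 in the 475 T cells whose T cell genes outnumbered the others. Genes called between *Cd8*- and *Cd4*-positive T cells numbered 0 to 2 without any one library (0 without Fosl2cKO 1), 2 under 5% mitochondrial UMIs, 3 without Scrublet's barcodes, 2 with 3 receptor genes, 9 in the 475 T cells, 10 at up to 6000 UMIs, 34 without a gene filter, 3 by DESeq2 and 2 without the library block. The interaction called 164 genes in the 475 T cells, 42 of them among the 84, and 24 to 236 without any one library. Why these counts moved was not tested.

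Between the groups 0 genes passed in T cells without Scrublet's barcodes, over 2000 UMIs, or under 5% mitochondrial or 0.1% hemoglobin UMIs. The count was also 0 with 3 receptor genes, with DESeq2 size factors, and at an adjusted p under 0.05 with no minimum fold. With the replicate number as a block, 0 genes passed between the groups (292 at an unadjusted p under 0.05), with the numbers crossed 0 (490), and in the 475 T cells 244, which held all 68. In those cells 103, 113, 114 and 120 genes passed without Fosl2F/F 1, Fosl2F/F 2, Fosl2cKO 1 and Fosl2cKO 2. The numbers pair nothing by the labels, and the block left the shares' differences as they were, 1.23 percentage points for T cells.

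Among 41 named genes under 555 alternatives, 370 results kept direction and call, 133 passed only there, 38 passed no longer, and 14 changed sign. These were *Fosl2* without Scrublet's barcodes (-0.19) and without Fosl2F/F 1 (-0.11, in a range up to 0.42 without single libraries), *Trdc* without Scrublet's barcodes (-0.022), without Fosl2F/F 2 (-0.11, and -0.029 in the 475 T cells), without Fosl2cKO 2 (-0.33, in a range up to 1.2, and -0.39 in the 475 T cells) and with the block in the 475 T cells (-0.0037), *Ccl5* in the 475 T cells without Fosl2cKO 1 (-0.27), and *Ccl4* without Fosl2F/F 2 (-0.13) and without Fosl2cKO 1 (-0.15, in a range up to 0.44). In the interaction they were *Mmrn1* in the 475 T cells (10.88) and without Fosl2F/F 1 (10.50), where the Fosl2F/F T cells held no UMI of it (-13.01 without Fosl2cKO 1), and *Lipg* in the 475 T cells (-2.58). Depth limits what is seen in a single T cell, and the groups were not compared within the 40 *Cd4*-positive or 8 *Foxp3*-positive T cells.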
